A study of Sus scrofa with 32 samples.

Results

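The livers of 4 runt and 4 control pig fetuses at gestational day 50 were compared. These 8 arrays were chosen by their labels out of the 32 arrays of a series that also covers days 37, 70 and 110, again with 4 runts and 4 controls a day. All fetuses, controls included, came from artificially inseminated gilts that had lost 1 uterine horn and ovary to surgery, so the uterus was crowded in every pregnancy, and a runt is a growth-retarded fetus of such a litter. The labels describe littermate pairs of a growth-retarded and a control fetus from 4 gilts a day, but they do not say that a replicate number marks a litter. Total RNA of whole liver tissue was hybridised to single-colour Agilent arrays. Each level given here is a log2 signal from which the array's own 75th percentile has been subtracted; a level of 0 therefore marks a probe as bright as that percentile.

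In mid gestation the fetal liver makes plasma proteins, complement and acute phase proteins while it also houses blood formation. Its hepatocytes are still immature: AFP, the fetal relative of serum albumin, is abundant, while many enzymes of drug metabolism are gained later. Fetal growth depends largely on the insulin-like growth factors and their binding proteins, many of them made in the liver.

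The 8 arrays carried strong liver transcripts. AFP, transthyretin (TTR), transferrin (TF), the apolipoprotein APOA1 and the protease inhibitor SERPINA1 had mean levels from 7.56 to 9.87 in both groups. On these arrays 59.9% to 69.4% of the spots were well above background, and the 75th percentile lay between 253 and 373 units of fluorescence intensity. Across features the controls correlated with each other at 0.971 to 0.985, the runts at 0.970 to 0.978, and a control with a runt at 0.963 to 0.984. Day 50 controls 1 to 4 lay on slides 5, 6, 1 and 3, and runts 1 to 4 on slides 9, 7, 8 and 2. No slide thus held both a day 50 runt and a day 50 control. Every difference between these groups, also within a set of slides, is therefore a difference between slides as well. Runt replicate 1 stood apart from the other 7 arrays. It was the lone array of slide 9, was scanned on a later day than the other 31 arrays, lay at position 1 where the other day 50 arrays lay at position 2, and carried most of the second component of variance of the 8 arrays (23.8%, loading 0.83, the others from -0.45 to 0.14). Among the 85 named features refitted without each array, values that turn sign or move by over 1.5 times without runt 1 are given both ways. Other genes, SERPINA1 among them, are given only with that array.

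Few transcripts separated runts from controls at day 50 past the test, and those with a gene symbol were LBP, NR1I2 and TMEM87A. LBP (NM_001128435), the secreted liver protein that binds bacterial endotoxin and hands it to CD14, fell. Its levels were 0.23, 0.30, -0.50 and 0.25 in controls 1 to 4 and -3.01, -2.90, -1.73 and -1.82 in runts 1 to 4. All 4 runts lay below all 4 controls, with runts 1 and 2 lowest, and every array was well above background. The change was -2.43 on the log2 scale (SE 0.38, n = 4 and 4), a 5.40-fold lower signal, at an adjusted p of 0.00458 by limma. The adjusted p stayed between 0.00208 and 0.0419 when any of the 8 arrays was left out. Within slides 4 to 9 the change was -2.81 (adjusted p = 0.108, 2 controls and 3 runts) and within slides 1 to 3 it was -1.69 (2 controls and 1 runt), and with only the 8 day 50 arrays in the fit the adjusted p was 0.194.

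NR1I2 (NM_001038005), the pregnane X receptor that senses drugs and bile acids and switches on their metabolism, fell as well. Controls 1 to 4 were at -3.25, -4.84, -3.82 and -3.73, and runts 1 to 4 at -6.10, -7.07, -6.07 and -5.51. The groups did not overlap, and the probe was well above background in 4 of 4 controls and 0 of 4 runts. The measured means were -3.91 ± 0.67 (SD, n = 4) and -6.19 ± 0.65 (SD, n = 4), a change of -2.28 (SE 0.41, adjusted p = 0.0201 by limma). Because no runt array was above background the fold is a lower bound, at least 1.85-fold lower in runts, computed against the background limit of each array. The call ended without control 1, 3 or 4 or runt 1 or 2 (adjusted p from 0.0556 to 0.166). With another background correction, normexp, the change of this dim probe was -0.32 (adjusted p = 0.999). Normexp here added an offset of 50 units to every signal, which by itself shrinks the log2 change of a dim probe. It therefore cannot show whether that change depends on the background.

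TMEM87A (XM_001929220), a membrane protein of the Golgi, rose by less. Controls 1 to 4 were at 2.11, 2.40, 2.11 and 2.22 and runts 1 to 4 at 2.71, 3.25, 2.87 and 2.77, without overlap and with runt 2 highest. The change was 0.69 (SE 0.13, 1.62-fold, adjusted p = 0.0201 by limma). Without control 1, 3 or 4 or runt 2 it was 0.57 to 0.69 and no longer passed (adjusted p from 0.0712 to 0.167), nor did it pass with scaling to the array median (0.72, adjusted p = 0.0623) with normexp (0.59, adjusted p = 0.0984) or with no filter on dim probes (adjusted p = 0.0582).

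**Figure D1:**
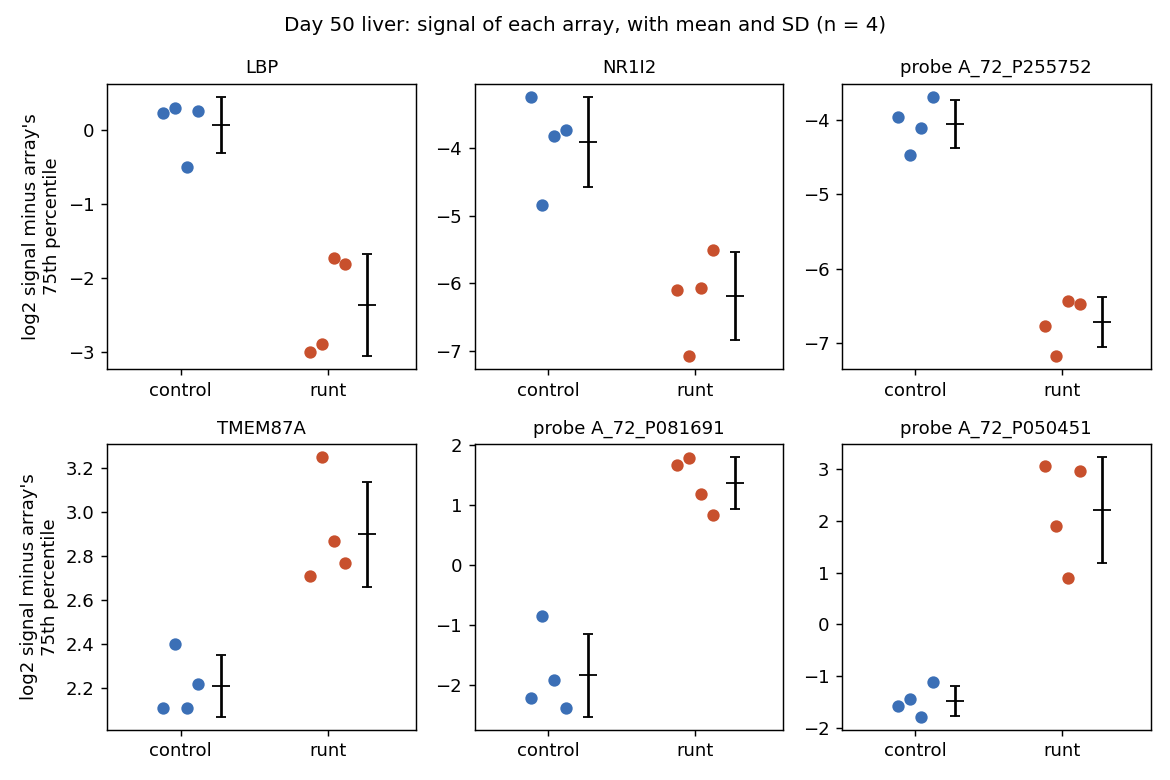
Level of each day 50 array (points, log2 signal minus the 75th percentile of its array) for 3 named genes and 3 unnamed probes that passed the test, with the mean and SD of 4 arrays beside each group (black). In each panel the 4 runts and the 4 controls do not overlap, and no runt array of NR1I2 or of probe A_72_P255752 was well above background.

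Over all 28670 features tested, 1596 of them with a gene symbol, 19 passed an adjusted p of 0.05 in limma. Of these, 9 were higher in runts (0.0314% of the features) and 10 lower (0.0349%), 16 changed at least 2-fold, and in 17 the groups did not overlap. At an unadjusted p of 0.05, 1141 features were higher and 976 lower. The change over all features had a median of -0.02. The count depended on single arrays: it was 5 without control 1, 7 without control 4, 6 without runt 1, 5 without runt 2 and 66 without runt 3, against 18 to 20 without each of the others. With the 8 day 50 arrays alone in the fit 2 features passed, both lower, and LBP, NR1I2 (adjusted p = 0.266) and TMEM87A (adjusted p = 0.323) were not among them. The same fit called 0 features at day 37, 0 at day 70 and 4 at day 110.

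The 16 other features that passed have no gene symbol in the annotation used. The probe A_72_P081691 (AK240246) was at -2.21, -0.84, -1.91 and -2.37 in controls and at 1.66, 1.78, 1.18 and 0.84 in runts. Every runt was above every control, a 9.18-fold higher signal (log2 change 3.20, SE 0.38, adjusted p = 9.03e-05 by limma). The probe A_72_P050451 (BX925993) was higher by 3.69 (SE 0.54, adjusted p = 0.00246). Among the lower ones, A_72_P224062 (BP453986) changed by -4.43 (SE 0.73, adjusted p = 0.00919), with runts 1 and 2 at -6.66 and -6.48 and runts 3 and 4 at -3.87 and -3.08. It was above background in 2 of 4 runts, and its call ended without control 1 or 4 or runt 1 or 2 (adjusted p from 0.0590 to 0.109). A_72_P255752 (CN160809) was at -3.95, -4.47, -4.10 and -3.68 in controls and at -6.78, -7.18, -6.44 and -6.48 in runts, where no array was above background. That makes it at least 1.68-fold lower, with a measured change of -2.67 (SE 0.29, adjusted p = 3.53e-05), and with normexp this dim probe changed by -0.29 (adjusted p = 0.932).

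Complement was the gene group with the most members lower in runts without overlap. Complement proteins, made mainly by hepatocytes, form a cascade that marks and lyses microbes. Of 22 measured complement genes 18 were below 0 and 4 above, with a median change of -0.76 against -0.02 over all features. All 4 runts lay below all 4 controls in 10 of the 22, where 3.15% of all features did so, and above them in 1, where 3.08% did. None of the 22 passed in limma after adjustment over all features (0 called, 11 at an unadjusted p of 0.05, all 11 lower). The signal summed over the list was 426 to 628 in controls and 304 to 384 in runts, in multiples of the 75th percentile. In bulk tissue, fewer cells of a type and less RNA per cell cannot be told apart.

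Of the genes whose proteins recognise microbes or antibodies, MBL1 was the lowest, the ficolin FCN2 was at -1.07 with overlap, and C1QA (-0.20) and FCN1 (-0.02) were near 0. MBL1, the mannose-binding lectin that recognises sugars on microbes, was at 1.37, 1.29, 0.44 and 1.93 in controls and -0.02, -1.19, -0.24 and 0.72 in runts. Runt 4 lay above control 3, so the groups overlapped, and the change of -1.44 (SE 0.30) just missed the threshold (adjusted p = 0.0563). Without single arrays its adjusted p ran from 0.0102 (without runt 4, -1.74) to 0.319 (without control 4, -1.22), and within slides 1 to 3 the change was -0.47. MASP2, the protease that the lectins activate, was at -1.53 (SE 0.34, adjusted p = 0.0808) with no overlap, and was above background in 2 of 4 runts. With normexp its change was -0.42. C1S, the protease of the antibody-triggered route, was at -1.70 (adjusted p = 0.105), and C2 and C4A, which it cleaves, were at -1.56 (adjusted p = 0.0958) and -1.68 (adjusted p = 0.107). C4A was dim, above background in 2 of 4 runts, and with normexp it was at -0.34 (adjusted p = 0.941). C3, on which all routes converge, had control levels of 6.50, 5.22, 5.66 and 6.94 and runt levels of 4.47, 2.86, 4.74 and 5.13, lowest in runt 2 and without overlap (-1.78, SE 0.44, adjusted p = 0.130). CFB, factor B of the alternative route, was at -0.65 (adjusted p = 0.454).

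The genes of the pore that lyses cells differed in direction. C8 is a protein of 3 chains from 3 genes. C8B was at 1.70, 1.93, 1.93 and 2.92 in controls and -0.76, -0.03, 1.04 and 0.51 in runts, and C8A was at -1.14 (SE 0.30, adjusted p = 0.153). For both chains all runts lay below all controls, the change of C8B being -1.93 (SE 0.41, adjusted p = 0.0609). The third chain, C8G, was the member whose runts all lay above the controls (0.48, SE 0.30, adjusted p = 0.783). C9, the ring-forming subunit, was at -0.87 (adjusted p = 0.199) without overlap, but its further probes, at -0.40 and -0.64, overlapped. C5 was at -0.25. C6 and C7 were well above background in at most 2 arrays of either group. The regulators were at -0.36 for clusterin (CLU), where the groups did not overlap, 0.27 for CD55 and 0.22 for CD59. Without runt replicate 3, whose complement levels lay nearest the controls in C8A, C8B, C2 and MASP2, these 4 genes passed (C8B -2.21, adjusted p = 0.0200, MASP2 -1.73, 0.0293, C8A -1.40, 0.0369, C2 -1.77, 0.0416). Leaving out another array instead gave adjusted p-values of up to 0.351 for C8B, 0.369 for MASP2 and 0.398 for C2 without control 4, and to 0.492 for C8A without runt 1. Using the arrays of slides 1 to 3 alone the list median was -0.72, and with those of slides 4 to 9 alone -0.46. It ran from -0.86 without control 3 to -0.48 without runt 4, and was -0.40 with normexp.

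**Figure D2:**
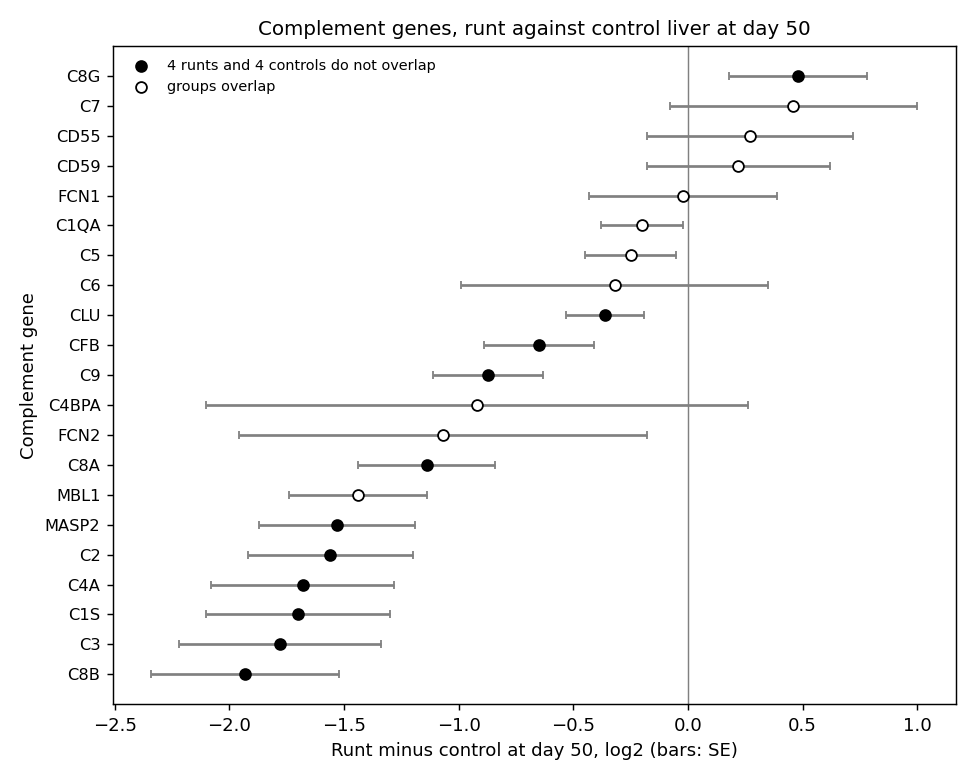
Runt minus control difference at day 50 (x axis, log2, bars are the SE of the fit over all 32 arrays) for 21 of the 22 measured complement genes (y axis). Filled points are genes whose 4 runts and 4 controls do not overlap: 10 lie below 0, from CLU at -0.36 to C8B at -1.93, and C8G lies above 0.

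The complement difference at other days was smaller in most of these genes. The list medians were -0.07 at day 37, -0.17 at day 70 and -0.26 at day 110. For C3 the runt minus control difference was -0.29, -0.52 and -0.10 on those days and for MASP2 -0.10, 0.20 and 0.09. For C8B it was -1.2, -0.31 and 0.06. None of the named complement genes passed the test of the day 50 effect against the mean effect of the other days (adjusted p of 0.949 or more). Day 50 was the lone day whose runt effect was compared in this way, and 1 feature, A_72_P255752, passed that test (0.00349% of the features, difference -2.54, SE 0.34, adjusted p = 0.00151, with runt effects of 0.06, -0.50 and 0.05 on days 37, 70 and 110). No day 50 runt array was above background for this probe, so the size of that difference is not fixed by the data, and with normexp 0 features passed. For LBP the effects on those days were -0.69, -0.56 and -0.27, so that day 50 differed from their mean by -1.92, which did not pass (adjusted p = 0.80). For NR1I2 they were 0.51, -0.73 and -0.11 (difference -2.16, adjusted p = 0.80), and at day 37 both group means, -7.15 in controls and -6.65 in runts, lay below the mean of the day 50 runts.

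**Figure D3:**
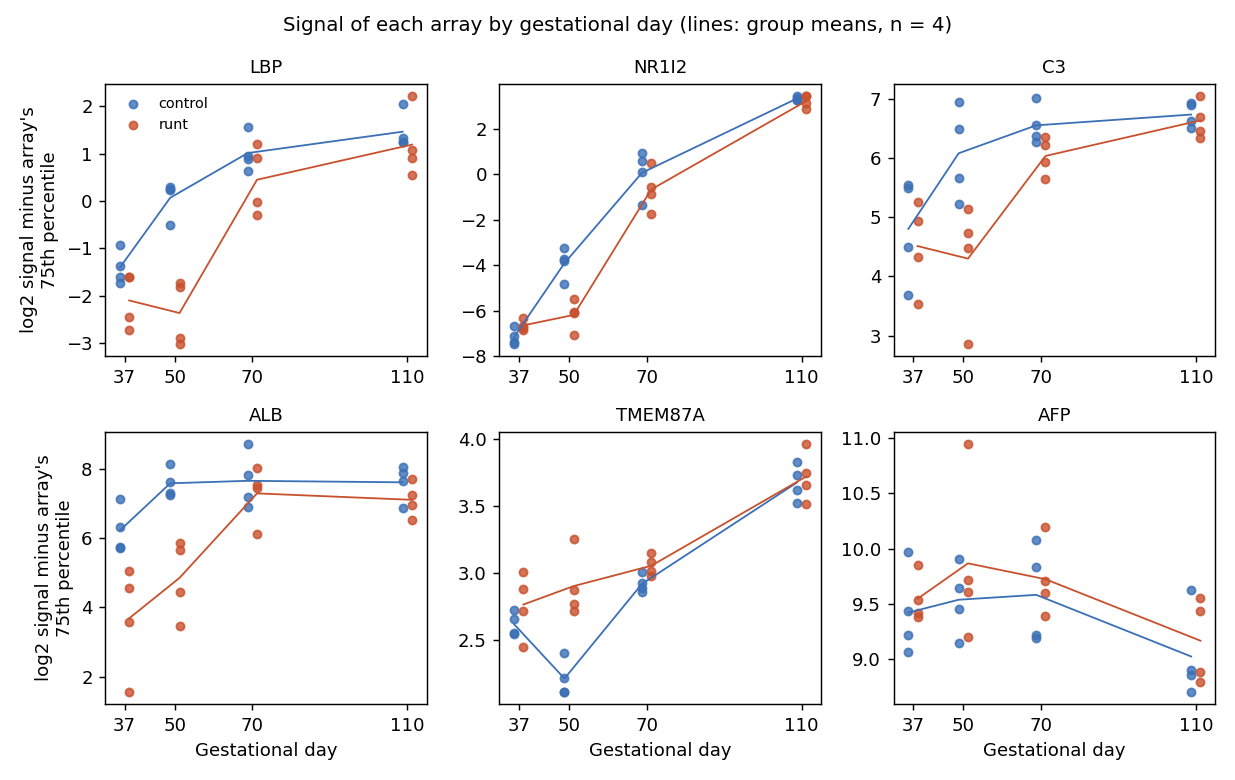
Level of each array by gestational day for controls and runts (points), with lines through the group means of 4 arrays. In controls LBP, C3 and ALB had means of 0.07, 6.08 and 7.57 at day 50, where the runt means were -2.37, 4.30 and 4.85, while at day 110 the group means of LBP, NR1I2, C3 and ALB lay within 0.50 of each other.

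Acute phase and plasma protein genes split. Besides LBP, SAA3, a serum amyloid A of the acute phase, was at -0.87, 0.12, -0.15 and -0.35 in controls and -2.33, -3.21, -1.32 and -2.39 in runts. The groups did not overlap (-2.0, SE 0.51, adjusted p = 0.147), and a further SAA3 probe was at -2.16, also without overlap. Haptoglobin, HP, which binds free haemoglobin, was at -1.17 (adjusted p = 0.203) with overlap, and HAMP, the iron hormone hepcidin, at 1.2 (adjusted p = 0.549). The endotoxin receptor genes that act with LBP, CD14, TLR4 and LY96, were at -0.31, -0.29 and -0.18 and did not pass. Of the 17 acute phase genes 7 were above 0 and 10 below (median -0.13), with LBP the 1 that passed, 3 higher and 3 lower at an unadjusted p of 0.05, and 2 lower without overlap. Over all features 0.0349% passed as lower and 3.15% were lower without overlap.

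ALB, serum albumin, had the lowest change among the 18 measured plasma protein genes. Its levels were 8.13, 7.61, 7.24 and 7.31 in controls and 4.43, 3.47, 5.85 and 5.65 in runts. All runts lay below all controls, runts 1 and 2 by more than runts 3 and 4 (-2.73, SE 0.59, adjusted p = 0.0640 by limma). A dimmer ALB probe was at -3.75 and passed in a fit with every probe as a feature of its own (SE 0.63, adjusted p = 0.0110 in limma). The call on the brighter probe depended on the setting. It passed with the slide set as a block (-2.85, adjusted p = 0.0380), with the authors' table (-2.69, adjusted p = 0.0436), and without runt 3 (-3.06, adjusted p = 0.0249). Without any other single array it did not pass. The adjusted p was then 0.332 for runt 2 (-2.27), 0.255 for control 1, 0.231 for runt 1 and 0.195 for control 4. It was 0.128 for control 2, 0.0925 for control 3 and 0.0795 for runt 4. The brighter probe did not pass with the day 50 arrays alone (0.269) or with slide as a random block (0.112) either. It was at -1.63 within slides 1 to 3 and -3.29 within slides 4 to 9. At day 37 the difference was of like size, -2.53, and at days 70 and 110 it was -0.36 and -0.50. None of these passed.

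Most other plasma protein genes were nearer 0, except HP, given above, and SERPINA3-2. AFP was at 9.91, 9.64, 9.45 and 9.14 in controls and 10.95, 9.72, 9.60 and 9.20 in runts, overlapping groups with runt 1 highest (0.33, adjusted p = 0.873, and -0.03 without runt 1). TTR (0.22, SE 0.49, or -0.05 without runt 1), TF (-0.14, SE 0.20, or -0.26 without runt 1), APOA1 (0.26, SE 0.21, or -0.04 without runt 1) and SERPINA1 (0.20, SE 0.29) overlapped as well. SERPINA3-2, an inhibitor of proteases, was the other plasma protein gene whose runts all lay below the controls (-0.87, SE 0.22, adjusted p = 0.146). The list split 9 above and 9 below 0, at a median of 0.03 with 0 genes passing (3 higher and 3 lower at an unadjusted p of 0.05). Coagulation genes were likewise near 0, 7 above and 11 below with a median of -0.02, and 0 passed (2 higher and 0 lower at an unadjusted p of 0.05). F3, tissue factor, was at 1.00 (SE 0.35, adjusted p = 0.400) and the factor XII gene F12 at 0.41. SERPINF1, which the list counts although it is not a clotting factor, was at 0.27. In F3 and SERPINF1 all runts lay above all controls, but a further probe of each, at 0.87 and 0.39, overlapped.

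Apolipoprotein and lipid handling genes gave 10 above and 6 below 0 (median 0.05), with 0 passing and 1 each way at an unadjusted p of 0.05. APOC4 was lower without overlap (-0.69, SE 0.22, adjusted p = 0.317), and APOM was at 0.40, or 0.20 without runt 1. APOA4, an apolipoprotein of the triglyceride-rich particles, was at -0.87, -1.09, -0.86 and -1.06 in controls and at -0.32, 3.72, -0.34 and -1.09 in runts. Its mean change of 1.46 (SE 0.76, adjusted p = 0.70) came mostly from runt 2, and without that array it was 0.39.

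**Figure D4:**
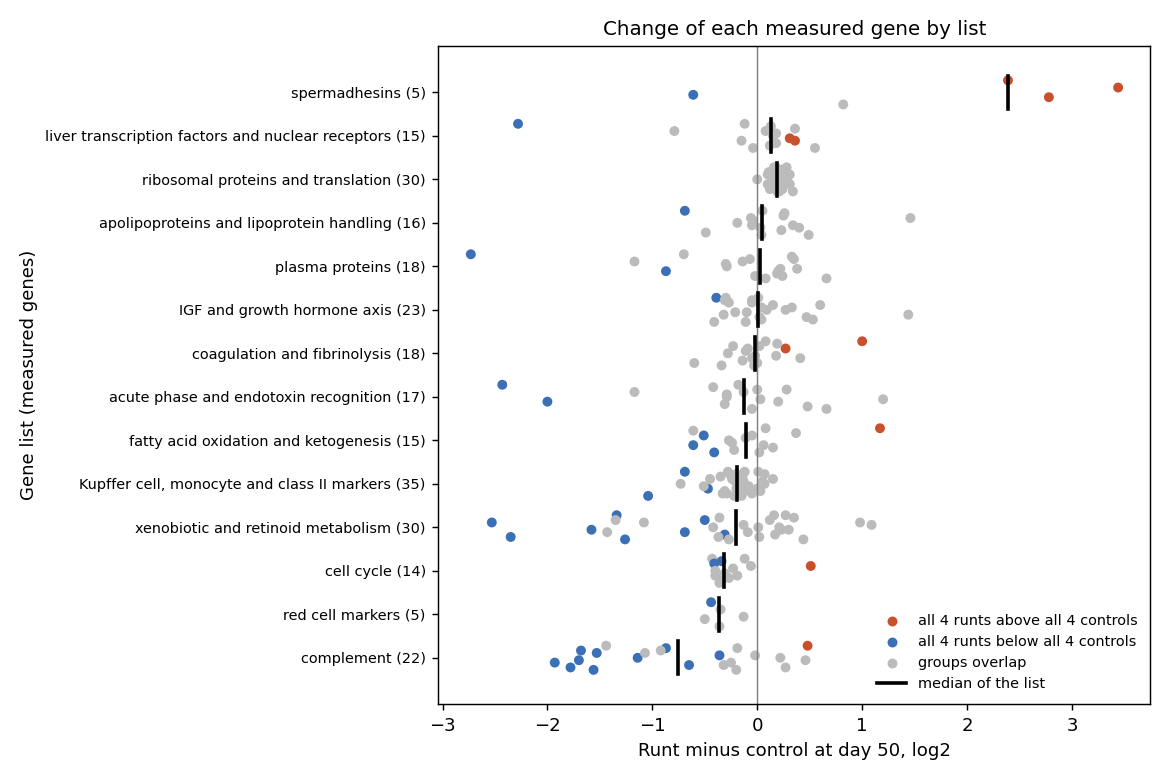
Runt minus control difference at day 50 (x axis, log2) of each measured gene, by gene list (y axis, with the number of measured genes), and the median of each list (black bar). Coloured points are genes whose 4 runts all lie above (red) or below (blue) the 4 controls. The complement list, at a median of -0.76, and the spermadhesins, at 2.39, lie farthest from 0.

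Among liver transcription factors NR1I2 was the 1 of 15 that passed. The others stood near 0 or slightly above it, so that 10 were above and 5 below 0 (median 0.13, 1 each way at an unadjusted p of 0.05). Their summed signal was 24.3 to 28.6 in controls and 28.9 to 34.2 in runts. ONECUT1, a factor of hepatocytes and bile duct cells, had all runts above all controls, at 0.31 (SE 0.18, adjusted p = 0.766). HNF4A, a master regulator of hepatocyte genes, was at 0.36 (adjusted p = 0.804, 0.23 without runt 1) and NR1I3, the related constitutive androstane receptor, at -0.04 (SE 0.40). SOX9, a bile duct factor, was at -0.79 (adjusted p = 0.695) and was above background in 2 of 4 runts.

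Several drug and hormone metabolising enzymes were lower. In 8 of 30 measured xenobiotic and retinoid genes all runts lay below all controls and in 0 all lay above (3.15% and 3.08% of all features), while 13 were above and 17 below 0 (median -0.20). None passed in limma (1 higher and 8 lower at an unadjusted p of 0.05). SULT1A3, a sulfotransferase of phenols and catecholamines, was at 5.01, 4.69, 4.67 and 5.24 in controls and 3.87, 2.73, 4.13 and 3.53 in runts (-1.34, SE 0.29, adjusted p = 0.0712). The runts were lowest in replicate 2 and did not reach the controls. Of its 3 other probes, at -1.33, -1.42 and -1.45, the second passed in the fit with every probe (adjusted p = 0.0272). SULT1E1, the oestrogen sulfotransferase, was at -2.53 (SE 0.71, adjusted p = 0.210) and, on days 37, 70 and 110, at -1.63, -2.03 and -2.11. The remaining 6 were the aldehyde dehydrogenase ALDH2 (-0.69, SE 0.18, adjusted p = 0.146), CES1 (-1.26), CYP2C49 (-2.35), STRA6 (-1.58, above background in 1 of 4 runts), MGST3 (-0.50) and MAOB (-0.31). Among NR1I2's relatives in this pathway, CYP3A29, a P450 of the family that NR1I2 is known to switch on, was above background in 2 of 4 controls and 0 of 4 runts and its groups overlapped (-1.35, SE 0.96, adjusted p = 0.821). GSTA1 was at 0.23, or -0.24 without control 3 and -0.09 without runt 1.

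Thyroid and steroid hormone enzymes gave single differences. DIO1, the deiodinase that activates thyroid hormone, was at -0.07, -0.76, -1.49 and 0.60 in controls and -2.40, -2.33, -2.82 and -1.63 in runts, lower in every runt (-1.86, SE 0.54, adjusted p = 0.230). HSD17B2, which inactivates sex steroids, was higher in every runt (0.65, SE 0.16, adjusted p = 0.140). The glucocorticoid receptor NR3C1 (0.08) and HSD11B1, which regenerates cortisol (-0.01), stayed near 0. Over the 15 genes of that list 7 were above and 8 below 0, with 0 passing and 2 each way at an unadjusted p of 0.05.

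The growth factor axis showed little difference. IGF2, the main fetal growth factor, was at 8.87, 8.63, 8.41 and 8.36 in controls and 9.33, 8.60, 8.61 and 8.34 in runts (0.15, SE 0.20, adjusted p = 0.917). The groups overlapped, the value was -0.05 without runt 1 and -0.04 with quantile normalization, and 4 other probes ran from -0.04 to 0.04. IGF1 was at -0.31 (SE 0.24), IGFBP3 at -0.05 (SE 0.22, 0.06 without runt 1), the growth hormone receptor GHR at 0.60 (SE 0.29, adjusted p = 0.676) and the imprinted growth gene DLK1 at -0.63 (SE 0.32, adjusted p = 0.698). IGFBP2, a binding protein that restrains these factors, was at 4.63, 4.43, 4.38 and 4.62 in controls and 7.05, 5.79, 4.59 and 6.37 in runts. Runts 1, 2 and 4 lay above all controls and runt 3 among them (1.44, SE 0.46, adjusted p = 0.316). ADIPOR1, an adiponectin receptor, was lower in every runt (-0.39, SE 0.13, adjusted p = 0.316), and a further probe was at -0.38 with overlap. Of 23 genes 12 were above and 11 below 0 (median 0.01), with 0 passing and 1 each way at an unadjusted p of 0.05.

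Spermadhesins, secreted proteins known from boar seminal fluid, were higher in runts in 4 of 5 measured genes. PSP-I was at -2.53, -3.30, -2.70 and -3.78 in controls and -0.24, -1.28, -1.27 and 0.03 in runts, a gap between the groups (2.39, SE 0.51, adjusted p = 0.0609, and 2.36 at a further probe). SPMI, the motility inhibitor of seminal plasma, was at 3.44 (SE 1.09, adjusted p = 0.309) and AQN-1 at 2.78 (SE 0.70, adjusted p = 0.142). The runts lay above all controls in both genes, but AQN-1 was above background in 1 of 4 controls. PSP-II was at 0.82 and LOC396905, which had all runts below all controls, at -0.61. None of the 5 passed (3 higher and 0 lower at an unadjusted p of 0.05), and with normexp the median of 2.39 became 0.82. The spermadhesins share much of their sequence, so their probes may cross-hybridise. At day 110 the runt minus control differences of PSP-I and SPMI were 2.14 and 3.64 (adjusted p = 0.327 and 0.714 by limma), and at day 70 0.42 and 1.93. None of these passed. For SPMI at day 110 the control mean was as low as -7.48 and the runts had an SD of 3.18.

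Metabolic genes differed in both directions. Higher in every runt were ACAA2, the thiolase that ends mitochondrial fatty acid oxidation (1.17, SE 0.28, adjusted p = 0.101), PDK4, which blocks entry of pyruvate into the citric acid cycle (1.67, SE 0.47, adjusted p = 0.203), and PEMT, which makes phosphatidylcholine (0.75, SE 0.20, adjusted p = 0.196). One further PDK4 probe was at 1.98 and another at -0.47. GLUL, glutamine synthetase, was higher as well at 0.94 (SE 0.31, adjusted p = 0.352), and its 3 other probes were at 1.00, 1.06 and 1.1. SQLE, an enzyme of cholesterol synthesis, was at 0.42 (adjusted p = 0.508) without overlap, and a further SQLE probe at 0.36 with overlap. STARD4, a sterol carrier, was at 0.29, or -0.23 within slides 1 to 3. Lower in every runt were the acyl-CoA dehydrogenases ACADM (-0.61, SE 0.15, adjusted p = 0.146) and ACADL (-0.51, SE 0.17, adjusted p = 0.352, and -0.33 without runt 1), the threonine dehydrogenase TDH (-1.19, SE 0.27, adjusted p = 0.0958), CTH, which makes cysteine (-0.63, SE 0.20), and the glycine methyltransferase GNMT (-1.16, SE 0.40). Of the glycolysis enzymes, PFKM was at -0.48 with overlap and TPI1 at -0.26 without it, though a further TPI1 probe, at -0.11, overlapped. The fatty acid oxidation list had 6 above and 9 below 0, glycolysis 8 and 3, cholesterol synthesis 5 and 1, and urea cycle and amino acid breakdown 4 and 9. None of their genes passed, and at an unadjusted p of 0.05 they had 1, 1, 2 and 1 higher and 2, 1, 0 and 2 lower.

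The remaining genes with the smallest p among those whose groups did not overlap encode a transporter, a peptidase and signalling proteins. SLC15A1, the intestinal and renal peptide transporter, was at -0.69, -0.74, -1.26 and -2.21 in controls and 2.44, 1.81, 0.01 and 0.99 in runts (2.54, SE 0.58, adjusted p = 0.0914), and ENPEP, the aminopeptidase that cleaves angiotensin, was at -1.89 (SE 0.40, adjusted p = 0.0598). FST, follistatin, which neutralises activins, was at 1.42 (SE 0.40, adjusted p = 0.210) and PIK3IP1, an inhibitor of PI3 kinase, at 0.66 (SE 0.18, adjusted p = 0.176). In each of these 4 genes the groups did not overlap, so leaving out 1 of the 8 arrays could not turn the sign.

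Markers of blood and immune cells were mostly lower in runts by small amounts. All 5 measured red cell genes were below 0 (median -0.36), from the embryonic globin HBE1 at -0.50 (SE 0.34, adjusted p = 0.807) over the erythropoietin receptor EPOR at -0.35 to the transferrin receptor TFRC at -0.13. None passed (0 at an unadjusted p of 0.05), but their summed signal was 213 to 219 in controls and lower in every runt, down to 129. Of 35 Kupffer cell, monocyte and class II genes 28 were below 0 (median -0.19), with 0 passing and 3 lower at an unadjusted p of 0.05. These were the cytokine IL18 (-0.69, SE 0.17, adjusted p = 0.130, and -0.85 with adjusted p = 0.0222 without runt 3), AIF1 (-0.47, adjusted p = 0.352, a further probe at 0.15) and CD86 (-0.45). LYZ, lysozyme, was at -1.04 (adjusted p = 0.732) with all runts below all controls. The summed signal of that list was 322 to 367 in controls and 257 to 336 in runts. Of 13 granulocyte genes 7 were above 0 and 0 passed (0 at an unadjusted p of 0.05). The antimicrobial peptide PR39 was at 0.79 (SE 0.49, and 0.41 without runt 1) and the oxidase subunit CYBA at -0.21, both with overlap. The part of red cell and macrophage content in the lower complement and LBP signals was not tested.

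Cell cycle genes were lower in 13 of 14 (median -0.32), with 0 passing and 2 lower at an unadjusted p of 0.05. Those were the phosphatase CDKN3 (-0.43, or -0.24 without runt 1) and cyclin D3, CCND3 (-0.40), both with overlap. The mitotic kinase CDK1 had all runts below all controls (-0.41, SE 0.23, adjusted p = 0.754). Cyclin D2, CCND2, was the exception at 0.51 with all runts above all controls (SE 0.26, adjusted p = 0.693). A further CCND2 probe was at 0.14 with overlap. The summed signal was 224 to 265 in controls and 182 to 229 in runts, overlapping in range. The 30 ribosomal protein and translation genes had a median of 0.19 with 0 passing (0 at an unadjusted p of 0.05), among them RPS3 at 0.28, RPS16 at 0.31 and the elongation factor EEF1A1 at 0.31. Without runt replicate 1 these were 0.10, 0.20 and 0.13, the median was 0.02, and it was 0.05 with the authors' values. Markers of other abdominal tissues gave no common direction: 20 gut, kidney, gonad and adrenal genes had 7 above and 13 below 0, 7 pancreas genes 3 and 4, and 16 muscle genes 5 and 11, at medians of -0.16, -0.01 and -0.05. In the first list SLC15A1 and ENPEP stood out, and GUCY2C, a guanylate cyclase of the gut, was lower in every runt by a small amount (-0.37). The summed signals of pancreas and muscle markers were 2.30 to 3.12 and 36 to 49 in controls and 2.00 to 5.35 and 32.1 to 42.5 in runts.

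The runt effect at day 50 was set beside the change that control livers undergo from day 37 to day 70, which uses none of the day 50 arrays. Of the features that rose at least 2-fold in that time (1819, adjusted p under 0.05), 1091 were above 0 in runts at day 50 and 728 below, a median of 0.09. Of the 1079 that fell, 898 were below 0, which is 83.2% against 53.3% of all features, and their median was -0.31 against -0.02. Leaving out any of the 8 arrays gave medians of 0.05 to 0.14 and of -0.44 to -0.23. In both sets the day 50 difference thus more often had the sign of the change with age than the opposite sign. The day 37 controls all lay at array position 1 and the day 70 controls at position 3, so day and position cannot be told apart in that change.

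The features that passed at day 50 showed both patterns. Of the 19, 14 changed between days 37 and 70 in controls, 8 with the sign opposite to the runt effect and 6 with the same sign. LBP and NR1I2 were of the first kind, lower in runts and higher with age (2.42 and 7.22, adjusted p = 3.78e-05 and 7.96e-12 by limma). The mean of LBP in the day 50 runts, -2.37, lay below that of the day 37 controls, -1.41. For NR1I2 these means were -6.19 and -7.15, but no day 50 runt array was above background, so the levels cannot be compared closely. ENPEP, MBL1, SAA3, C3 and DIO1, which rose with age by 1.75 to 2.97, were also lower in runts, without passing. C8B, MASP2, C2 and C4A had control changes of -0.07 to -0.53 that did not pass, and were lower in runts as well. The higher probes A_72_P050451 and A_72_P081691 were of the second kind, rising in controls by 5.21 and 4.25.

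**Figure D5:**
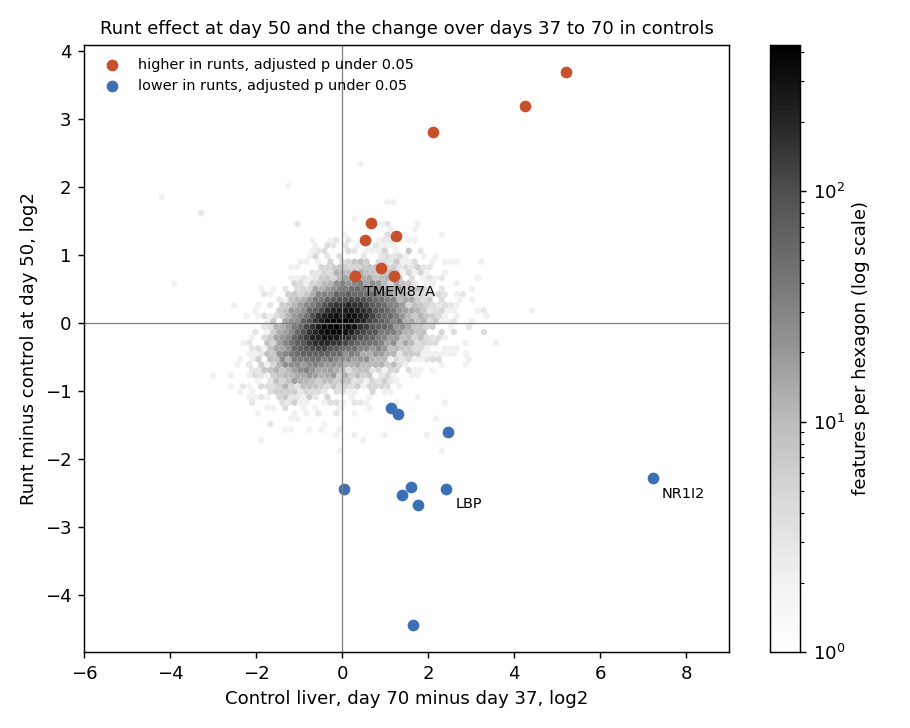
Runt minus control difference at day 50 (y axis, log2) against the control change from day 37 to day 70 (x axis, log2) for all 28670 features (grey hexagons, shade on a log scale) and the 19 features that passed at day 50 (red higher, blue lower in runts). The x values of the 10 lower features run from 0.05 to 7.22, the last being NR1I2, and those of the 9 higher features from 0.30 to 5.21.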

How the data were processed

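The scanner files were single-colour Cy3 Feature Extraction 10.7.3.1 output, and per the file headers the processed signal is a background-subtracted fluorescence intensity. A second deposited file holds one log2 value per probe and array. The submitters' processing notes name Partek, without a version. Its columns share a maximum of 18.47, have medians of 5.148 to 5.153 and correlate with the scanner's log2 signal at 0.993 to 1.00, so scale and direction are those of the signal; the authors' normalization and any centring are unknown. It served as an alternative. From the intensities, log2 minus the array's 75th percentile was taken, with control and outlier spots left out and spots of a probe averaged. Of 43603 probes, 2683 were named through RefSeq accessions (Sscrofa11.1), giving 1904 symbols. A probe was tested if well above background on at least 3 of 4 arrays of a group, and the brightest probe stood for a gene (28670 features, 248 missing values).

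One mean for each of the 8 groups was fitted over 32 arrays with limma 3.58.1 (R 4.3.3), 24 residual degrees of freedom, two-sided, Benjamini-Hochberg over all features, called under 0.05. The arrays carry total fluorescence and no counts, so their number limits the precision. The 4 samples of a group came from distinct gilts. The fit was tested on simulated data with independent arrays, which cannot show how slides or litters bear on the calls. The gene lists (40) and the comparison itself were chosen with earlier results of these data known. Named genes were those called, filled to 10 a direction by p among genes without overlap and above background on all 4 arrays of the higher group, a fixed panel, the called or 3 smallest-p members of each list described, and the called unnamed probes with the largest changes, 2 a direction. Further list members, such as the remaining complement, xenobiotic and plasma protein genes, were named after their values were seen. The alternatives were the authors' table, quantile and median scaling, normexp, other filters, slide and replicate blocks, single slide sets, day 50 arrays alone, every probe, and leaving out each array. Normexp was planned on mean signals; the files read here gave median signals, which were used. In normexp an offset of 50 was added to each signal, which draws the log2 changes of dim probes towards 0. Some measured members of the lists are counted but not reported by name here.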

Additional observations from a re-analysis of the deposited data

Results flagged for a closer look

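In several named genes 1 of the 4 arrays of a group lay far from the other 3, by a gap above the 95% critical value of Dixon's test. This was so in 10 of 170 groups tested, and chance alone gives about 1 group in 20. Among controls, replicate 3 was at -0.50 in LBP (others 0.23 to 0.30) and at -3.61 in SPMI (others -4.95 to -4.77), replicate 4 at -0.57 in ENPEP (others -1.05 to -1.0), 8.70 in APOA1 (others 9.19 to 9.29) and 7.76 in APOM (others 7.99 to 8.04), replicate 1 at 7.95 in TF (others 7.59 to 7.65), and replicate 2 at 0.64 in PFKM (others 0.31 to 0.34). Among runts, replicate 2 was at 3.72 in APOA4 (others -1.09 to -0.32), and replicate 1 at 2.52 in ACADL (others 3.20 to 3.23) and 6.91 in CFB (others 6.60 to 6.64). Replicate 1 was the array scanned on a later day. Its part in these values was not tested.

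The runt effect of the unnamed probe A_72_P255752 at day 50 differed from its mean effect on the other 3 days by -2.54, in the test of that difference over all features by limma (adjusted p = 0.00151). At day 50 it was above background in 0 of 4 runts, and with normexp its day 50 change was -0.29 and no feature passed the test of the difference. SERPINA3-2, the protease inhibitor that was lower in all day 50 runts, had all 4 runts above all 4 controls at day 110 (0.48). That contrast between the days was not past the threshold (difference of day 50 from the other days -0.88, adjusted p = 1.00 by limma).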

How the results depend on the processing

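Of 85 named features 76 had the same direction in every alternative. Many of the 85 were named because their runts and controls did not overlap. That alone fixes their sign when an array is left out or a slide set is used alone. The 19 calls became 40 with the authors' table, 46 with quantile normalization, 33 with the slide set as a block, 35 among features above background on all 32 arrays, 2 with the day 50 arrays alone, 0 within slides 1 to 3, 1 within slides 4 to 9, and 5 to 66 without single arrays. Median scaling gave 4 higher and 9 lower, normexp 5 and 12, against 9 and 10. With a replicate block 52 passed (24 higher, 28 lower, 15 of them among the 19); 6 complement genes then passed, C3 (0.00267), MASP2 and C4A (0.0259), MBL1 (0.0341), C1S (0.0411) and C2 (0.0443), as did DIO1 (0.0259), SLC15A1 and SULT1A3 (0.0328), ACAA2 (0.0350) and ENPEP (0.0360), and NR1I2 did not (0.0516). Same-numbered arrays correlated at -0.09 to 0.43 in their deviations, over 0.1 in 3 of 4 pairs, and 5 of 8 arrays correlated best with their own number, which is short of every pair; the fit was left unpaired, and whether the numbers mark litters is not known. With normexp the changes of several dim genes were over 1.5 times smaller, at 1.29 for PSP-I, 0.72 for AQN-1, 1.57 for SPMI, -1.07 for ENPEP, -1.23 for SAA3, -1.65 for SULT1E1, -1.16 for DIO1, -0.51 for GNMT, -0.10 for SOX9 and 0.11 for GHR. The offset of 50 in normexp by itself shrinks such changes, and its part in them was not tested. The test of day 50 against the other days gave 0 with normexp and 1 to 2 without single arrays. The fit of normexp to all spots put the background mean far below the signals of 6 arrays, 3 of day 50 (lowest -991), and called 17055 features; it was replaced, after seeing this, by a fit with the lowest 0.1% of differences held at their quantile.

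Signs turned for small effects. Within slides 1 to 3 they were -0.10 (AFP), -0.24 (TTR), -0.12 (APOA1), -0.13 (APOA4), -0.04 (IGF2), 0.13 (IGFBP3) and -0.23 (STARD4), and within slides 4 to 9 -0.01 (TTR), -0.28 (GSTA1) and 0.03 (TFRC). TTR was at -0.09 with the slide set block, IGFBP3 at 0.01 with slide as a random block, and IGF2 at -0.04 with quantile normalization and with the authors' table. Without single arrays AFP ran from -0.03 to 0.55, TTR from -0.05 to 0.57, APOA1 from -0.04 to 0.42, IGF2 from -0.05 to 0.28, IGFBP3 from -0.11 to 0.06 and GSTA1 from -0.24 to 0.50. The cause was not tested. Dim probes near background, NR1I2 among them, limit what their fold can show.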

Other observations

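Other gene groups held differences that did not pass in limma after adjustment. Of 26 antioxidant and iron handling genes 18 were below 0 (median -0.13). TXNIP, an inhibitor of thioredoxin, had all runts above all controls (0.80, SE 0.24, adjusted p = 0.246), while catalase, CAT, and KEAP1, a sensor of oxidants, had all runts below (-0.34 and -0.28). Of 20 genes of the respiratory chain 14 were below 0 (median -0.15), with UQCR10 at -0.33 and UCP2 at -0.37 lower in every runt. In the stress lists, the chaperone HSP90B1 (0.41, adjusted p = 0.354) and P4HA1, a collagen-modifying enzyme induced by low oxygen (0.74, adjusted p = 0.388), were higher in every runt, and the stress hormone GDF15 (1.06) and VEGFA (0.65) overlapped. The lists as a whole were more even. Of 13 hypoxia genes 8 were above and 5 below 0 (median 0.08). Of 15 immediate early and heat shock genes 7 were above and 8 below (median -0.13). Of 7 amino acid and unfolded protein stress genes 5 were above and 2 below (median 0.22). KLRK1, a receptor of natural killer cells, was lower in every runt (-1.05, SE 0.27, adjusted p = 0.152), whereas of 17 lymphocyte genes 10 were below 0 with a median of -0.01. Of 23 endothelial and 24 stellate cell genes 14 and 10 were below 0, at medians of -0.05 and 0.06. Of 9 bile duct genes 7 were below 0 (median -0.36), and every runt's summed signal, 84.6 to 105, lay below every control's, up to 124. These genes were chosen after their values were seen.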
